A study of Rattus norvegicus with 9 samples.

Results

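Immediate early genes are transcribed within minutes of a stimulus, without the need for new protein synthesis, and their mRNAs are short-lived. The 10 genes described here were taken by symbol from the 23953 genes of the count table, and all 10 were found. They were Fos, Fosb and Junb, which encode subunits of the AP-1 transcription factor, the zinc finger transcription factors Egr1, Egr2 and Egr3, the orphan nuclear receptor gene Nr4a1, the neuronal activity factor Npas4, the synaptic gene Arc, and Ier2. In neurons they follow calcium entry and synaptic activity, and in dividing progenitors and glia most of them follow growth factors through the MAPK cascade. Arc and Npas4 are the members most closely tied to neurons. No stimulation step is named for the sequenced cultures, so the values are levels at harvest and not a time course.

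The samples were neural stem cells (NSCs) labelled as cells of rat spinal cord, and the methods describe a neonatal source. In the Con group the cells were kept in differentiation medium alone. The Exo group also received exosomes of bone marrow mesenchymal stem cells (BMSC-Exos), which the methods trace to BMSCs carrying the empty lentiviral vector, and the pLV-Exo-Wnt5a group received exosomes of BMSCs that overexpressed Wnt5a through a lentivirus. Differentiation medium was common to all 3 groups, and Wnt5a was overexpressed in the donor cells and not in the NSCs. Each group had 3 sequenced libraries. The methods describe several replicates per group for the differentiation experiment, but no source ties a library to one of them, so p-values measure only the spread between libraries, which may be technical. The Con group received no BMSC-Exos.

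Total counts were between 32765138 and 40427647 per library, so that a count of 0 allows up to 3 counts, or 0.0742 to 0.0916 CPM (the count scaled to a common library size). Only counting error enters this limit. The members had between 14 counts (Fosb) and 2592 counts (Egr1) in a library, and none was at 0. CPM values were normalized by TMM and were not divided by gene length, so levels are compared between libraries and never between genes. Con replicate 1 stood apart, with a TMM factor of 0.95 against 0.996 to 1.02 in the other libraries. Wnt5a itself, overexpressed in the donor cells, had a log2FC of 0.01 in the NSCs between pLV-Exo-Wnt5a and Exo libraries (Q = 0.983 in edgeR). Defining markers of neural cells were present: Tubb3, a neuronal tubulin, averaged 1801 CPM in Con libraries, the astrocyte filament gene Gfap 2551 CPM, and the progenitor gene Sox2 462 CPM. In bulk libraries, fewer cells of a type and less RNA per cell cannot be told apart.

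Control of these genes is classically traced to the CArG box, bound by serum response factor, and to the cAMP response element (CRE), bound by CREB. RefSeq promoters of the rat build GRCr8 were matched by symbol for 7 of the 10 members, and those of Fos, Egr3 and Arc were not matched. The counts carry mouse symbols and mouse gene numbers, so these rat sequences are context and not the sequences counted. The 250 bases before the start site are shown 5′ to 3′ for 4 members that differ in these letters, with CArG boxes and CRE letters (TGACG or its complement CGTCA) in capitals.
Junb, chr19:40080876-40081125, plus strand: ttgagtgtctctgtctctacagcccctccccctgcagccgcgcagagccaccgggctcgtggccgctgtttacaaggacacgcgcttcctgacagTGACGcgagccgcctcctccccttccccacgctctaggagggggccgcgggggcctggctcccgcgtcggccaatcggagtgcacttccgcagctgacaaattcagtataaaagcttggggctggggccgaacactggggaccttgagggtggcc
Egr2, chr20:21054442-21054691, minus strand: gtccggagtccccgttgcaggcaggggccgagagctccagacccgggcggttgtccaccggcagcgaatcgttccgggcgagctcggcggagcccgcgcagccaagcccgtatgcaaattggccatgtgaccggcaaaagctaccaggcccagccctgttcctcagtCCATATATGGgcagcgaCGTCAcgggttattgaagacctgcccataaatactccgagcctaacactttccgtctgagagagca
Nr4a1, chr7:134259888-134260137, plus strand: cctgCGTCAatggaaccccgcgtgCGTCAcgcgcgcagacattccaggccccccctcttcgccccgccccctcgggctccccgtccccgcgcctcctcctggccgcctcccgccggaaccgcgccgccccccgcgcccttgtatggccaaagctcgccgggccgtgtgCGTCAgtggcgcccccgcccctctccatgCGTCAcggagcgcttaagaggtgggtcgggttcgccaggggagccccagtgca
Ier2, chr19:40399123-40399372, plus strand: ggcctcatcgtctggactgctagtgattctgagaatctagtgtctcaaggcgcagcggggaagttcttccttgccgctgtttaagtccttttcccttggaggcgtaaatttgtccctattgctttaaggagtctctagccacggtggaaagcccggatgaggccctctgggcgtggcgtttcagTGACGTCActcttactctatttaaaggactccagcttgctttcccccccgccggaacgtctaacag
The start used for Nr4a1 and Egr2 lies inside the annotated gene (chr7:134247153-134268044 and chr20:21050149-21055201), not at its outer end. Both strands were searched over 300 bases, from 250 before to 50 after the start. A CArG box was found in Egr1 and Egr2, 2 of 7 members, and in 1.64% of the 33469 promoters of this length. In Egr2 it began 83 bases before the start, and a CRE core began at 66. The letters TGACG were found in 5 of 7 members (Junb, Egr1, Egr2, Nr4a1 and Ier2) and in 21.2% of all promoters. Nr4a1 held 4 of these matches. The palindrome TGACGTCA, which contains that core on both strands, was found in Ier2 and in 1.83% of promoters. The AP-1 motif TGANTCA was in 0 of 7 members and 7.33% of promoters, and the Egr motif GCGNGGGCG was in Nr4a1 and 4.98% of promoters. A match is a description of letters, and these data do not measure binding.

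The plot of members by library gives all 90 values. Of the 10 members, Fos and Junb stood higher in every pLV-Exo-Wnt5a library than in every library of both other groups. Egr1 stood higher in every library of both exosome groups than in every Con library. None of the 10 members had an adjusted p (Q) under 0.05 in any of the 3 pairwise comparisons in edgeR's quasi-likelihood test, adjusted by Benjamini-Hochberg over all genes tested, while at an unadjusted p under 0.05 2 members stood higher in Exo than in Con libraries, 4 in pLV-Exo-Wnt5a than in Exo libraries and 3 in pLV-Exo-Wnt5a than in Con libraries. The share of all genes with Q under 0.05 was 0.00664%, 0.436% and 0.0862% in these comparisons, and 0.00664%, 0.159% and 0.0663% with the added limit of a fold change above 2 or below 0.5, which no member met. DESeq2 on the same libraries gave Q under 0.05 for 1, 2 and 1 members in turn, and for 1.4%, 2.72% and 0.477% of all genes. By the study's other rule, an unadjusted p under 0.05 with an absolute log2FC above 0.58, the members passing in edgeR were 0 for Exo over Con, 3 for pLV-Exo-Wnt5a over Exo (Fos, Egr2 and, just inside the limit, Junb) and 2 for pLV-Exo-Wnt5a over Con (Fos and Junb), where 4.47%, 3.49% and 2.16% of all genes passed.

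**Figure D1:**
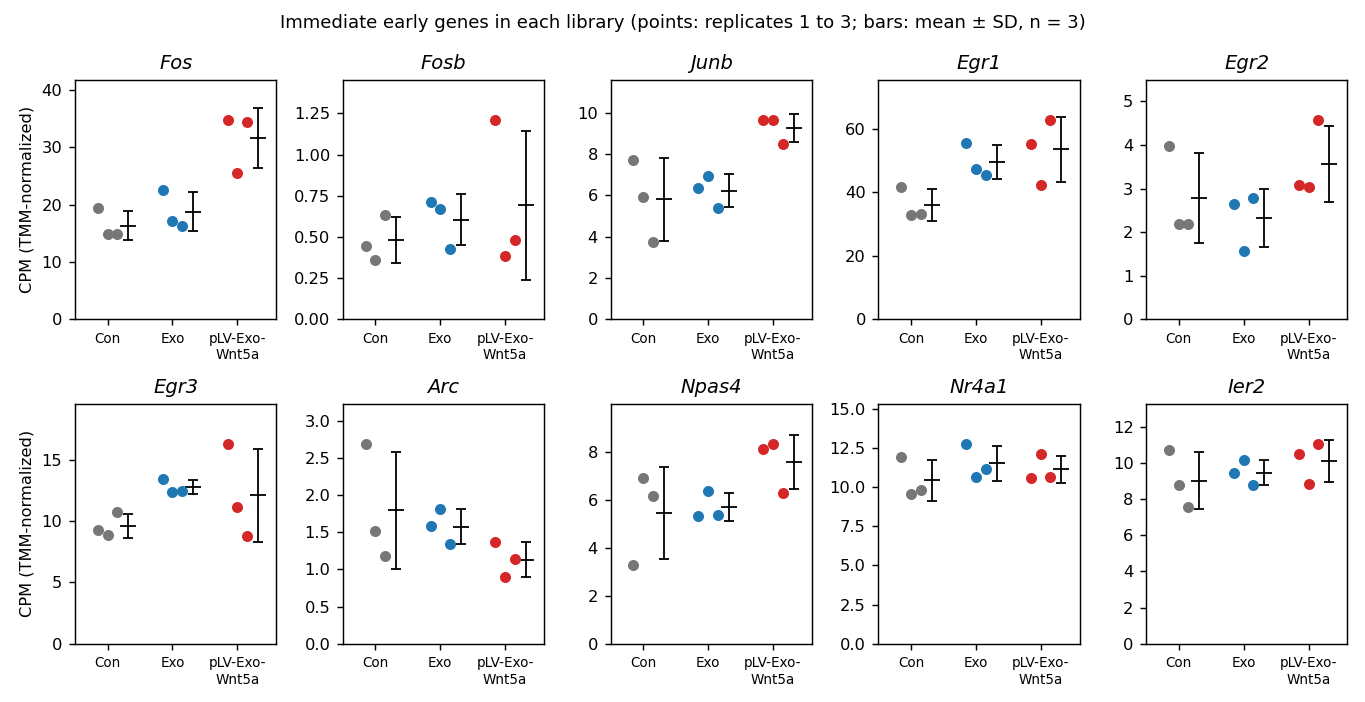
Each panel plots 1 gene in CPM (vertical axis, from 0) against group, with 1 point per library and the mean ± SD (n = 3) as a bar. Fos lies between 25.5 and 34.8 CPM in the pLV-Exo-Wnt5a libraries and between 14.8 and 22.6 CPM in the other 6.

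Fos (NCBI gene number 14281), the AP-1 subunit used most often as a mark of recent activity, was at 14.8, 14.9 and 19.3 CPM in Con libraries. It was at 16.4, 17.2 and 22.6 CPM in Exo libraries and at 25.5, 34.4 and 34.8 CPM in pLV-Exo-Wnt5a libraries. The pLV-Exo-Wnt5a libraries lay above all others, whereas the Con and Exo libraries overlapped. Group means were 16.3 ± 2.59, 18.7 ± 3.40 and 31.6 ± 5.24 CPM (SD, n = 3 each). Compared with Exo libraries the log2FC was 0.76 (standard error 0.15, 1.70-fold with a 95% interval of 1.36 to 2.13, unadjusted p = 0.000329, Q = 0.0563 in edgeR). Fos ranked 87 by p among 15132 genes tested in that comparison. Against Con libraries the log2FC was 0.95 (standard error 0.16, 1.93-fold with a 95% interval of 1.52 to 2.45, unadjusted p = 6.55e-05, Q = 0.0659 in edgeR), rank 15 of 15089. Neither value passed, and both comparisons use the same pLV-Exo-Wnt5a libraries, so they are not independent.

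The call for Fos depended on the fit. Q was 0.000208 with DESeq2 on the 6 libraries for pLV-Exo-Wnt5a against Exo and 6.13e-06 against Con. Leaving out Exo replicate 1 gave Q = 0.0159 in edgeR, and leaving out pLV-Exo-Wnt5a replicate 2 gave 0.0191, and against Con it was 0.0174 once Con replicate 1 was left out. Q was 0.309 without Exo replicate 2 and 0.456 against Con without pLV-Exo-Wnt5a replicate 3, while the log2FC stayed between 0.68 and 0.92, and between 0.87 and 1.09, over the 6 fits of each comparison. For Exo against Con the log2FC of Fos was 0.20 (standard error 0.16, 95% interval -0.16 to 0.56, Q = 0.544 in edgeR).

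**Figure D2:**
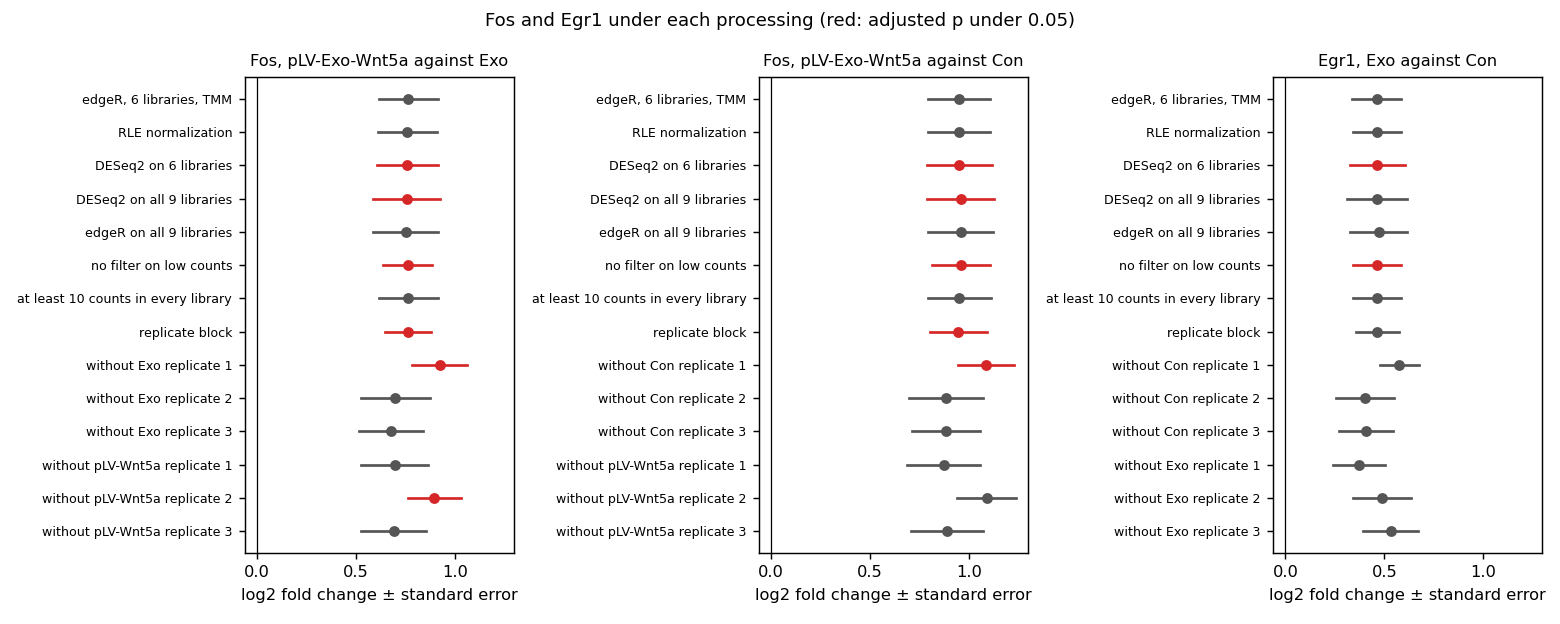
Each row is 1 way of processing and each panel 1 gene and comparison, with the log2 fold change and its standard error on the horizontal axis and red marking an adjusted p under 0.05. Fos for pLV-Exo-Wnt5a against Exo stays between 0.68 and 0.92 in the fits with a library left out, and the colour changes with the fit.

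Junb (16477), an AP-1 subunit that pairs with Fos, was at 3.75, 5.93 and 7.73 CPM in Con libraries and at 5.37, 6.36 and 6.93 CPM in Exo libraries. In the pLV-Exo-Wnt5a group it was at 8.48, 9.65 and 9.66 CPM, again above all 6 other libraries. Its log2FC was 0.58 against Exo libraries (standard error 0.14, 1.50-fold, unadjusted p = 0.00186, Q = 0.116 in edgeR) and 0.67 against Con libraries (standard error 0.23, 1.59-fold, Q = 0.516). DESeq2 on the 6 libraries gave Q = 0.0134 against Exo libraries. Over the 6 fits that each dropped a library, the log2FC ran from 0.49 to 0.66 against Exo libraries and from 0.44 to 0.93 against Con libraries. Of the latter range, the low end left out Con replicate 3 and the high end Con replicate 1.

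Fosb (14282), the third AP-1 member, was the least counted of the 10, with 14 to 48 counts per library. It was between 0.359 and 0.636 CPM in Con libraries, between 0.429 and 0.715 CPM in Exo libraries, and at 0.382, 0.484 and 1.21 CPM in pLV-Exo-Wnt5a libraries. Only pLV-Exo-Wnt5a replicate 1 lay above the range of the other groups. The 95% interval of its log2FC against Exo libraries ran from -0.91 to 1.32. With these counts and this spread between libraries, a change as large as that of Fos could not be told from none. Without pLV-Exo-Wnt5a replicate 1 the log2FC was -0.46 in place of 0.20.

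Egr1 (13653), a zinc finger factor induced by growth factors as well as by activity, was at 32.9, 33.1 and 41.7 CPM in Con libraries. It was at 45.3, 47.4 and 55.5 CPM in Exo libraries and at 42.3, 55.2 and 62.8 CPM in pLV-Exo-Wnt5a libraries. All 6 exosome-treated libraries lay above the 3 Con libraries, and the 2 exosome groups overlapped. The log2FC was 0.46 for Exo against Con (standard error 0.12, 1.38-fold, unadjusted p = 0.00353, Q = 0.265 in edgeR) and 0.57 for pLV-Exo-Wnt5a against Con (standard error 0.15, 1.49-fold, unadjusted p = 0.00245, Q = 0.354). Both values rest on the same 3 Con libraries. DESeq2 gave Q = 0.0453 for Exo against Con on 6 libraries. Between the 2 exosome groups the log2FC was 0.12 with a 95% interval of -0.17 to 0.41, and this interval does not reach the 0.76 of Fos.

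Egr3 (13655), which acts downstream of similar signals, was at 8.86, 9.28 and 10.7 CPM in Con libraries and at 12.4, 12.5 and 13.4 CPM in Exo libraries. These groups did not overlap, with a log2FC of 0.41 (standard error 0.14, unadjusted p = 0.0132, Q = 0.274 in edgeR). In the pLV-Exo-Wnt5a group the libraries spread from 8.79 to 16.3 CPM, across the range of both other groups. Egr2 (13654) was at 2.18, 2.18 and 3.98 CPM in Con libraries, at 1.57, 2.65 and 2.78 CPM in Exo libraries and at 3.03, 3.08 and 4.58 CPM in pLV-Exo-Wnt5a libraries. The pLV-Exo-Wnt5a libraries lay above the Exo libraries, with a log2FC of 0.62 (standard error 0.27, unadjusted p = 0.0430, Q = 0.395 in edgeR), but 2 of them lay below Con replicate 1. Its unadjusted p was no longer under 0.05 when Exo replicate 2 was left out (log2FC 0.39, Q = 0.738 in edgeR) or when pLV-Exo-Wnt5a replicate 3 was (log2FC 0.39, Q = 0.618). Of the 3 Egr genes, each thus had its own order of groups, and the differences between genes were not tested.

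**Figure D3:**
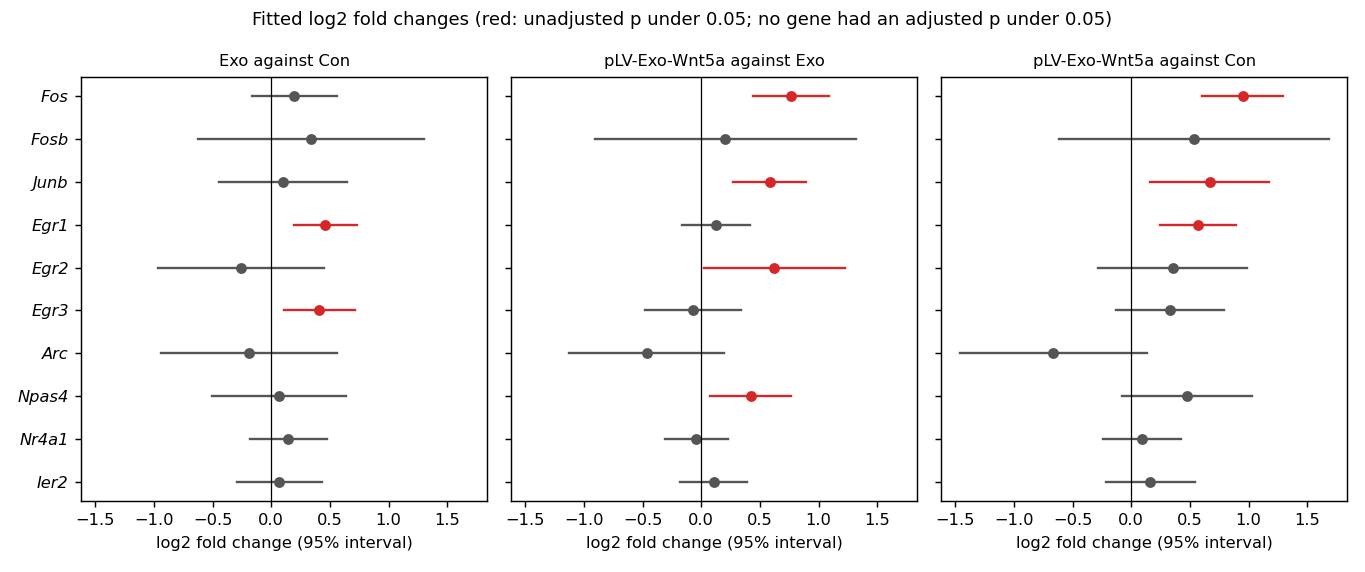
Points are fitted log2 fold changes of the 10 genes (horizontal axis) in 3 comparisons, with 95% intervals as lines. Red marks an unadjusted p under 0.05: Egr1 and Egr3 for Exo against Con, Fos, Junb, Egr2 and Npas4 for pLV-Exo-Wnt5a against Exo, and Fos, Junb and Egr1 for pLV-Exo-Wnt5a against Con.

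Npas4 (225872), a factor induced by calcium entry in neurons, was at 3.30, 6.14 and 6.91 CPM in Con libraries, at 5.33, 5.37 and 6.36 CPM in Exo libraries and at 6.30, 8.10 and 8.32 CPM in pLV-Exo-Wnt5a libraries. The ranges of the exosome groups touched, with 1 pLV-Exo-Wnt5a library just below the highest Exo library. The log2FC between them was 0.42 (standard error 0.16, unadjusted p = 0.0228, Q = 0.326 in edgeR), and with a library left out p was under 0.05 in 2 of 6 fits.

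Arc (11838), whose product acts at synapses on glutamate receptor traffic, had few counts, from 33 to 102 per library. It was at 1.18, 1.51 and 2.69 CPM in Con libraries, at 1.34, 1.58 and 1.81 CPM in Exo libraries and at 0.900, 1.14 and 1.36 CPM in pLV-Exo-Wnt5a libraries. Its group means stood in the opposite order to those of Fos, at 1.79 ± 0.79, 1.58 ± 0.24 and 1.13 ± 0.23 CPM (SD, n = 3 each), but all groups overlapped. Against Con libraries the log2FC was -0.66 (standard error 0.36, 95% interval -1.46 to 0.13, Q = 0.649 in edgeR) for pLV-Exo-Wnt5a. It was -0.25 without Con replicate 1.

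Nr4a1 (15370), a nuclear receptor without a known ligand, and Ier2 (15936), a nuclear protein of the early response, had overlapping groups throughout. Nr4a1 was between 9.58 and 12.8 CPM and Ier2 between 7.57 and 11.0 CPM in all 9 libraries. The 95% interval of the log2FC for pLV-Exo-Wnt5a against Exo was -0.31 to 0.23 for Nr4a1 and -0.18 to 0.39 for Ier2. A change of the size fitted for Fos lies outside both intervals.

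Between pLV-Exo-Wnt5a and Exo libraries, 7 of 10 members had a log2FC above 0 (51.4% of all genes tested), and the median was 0.16 against 0.0049 over all genes. At an unadjusted p under 0.05, 4 of 10 were higher and 0 lower, where 5.07% of all genes tested were higher and 6.91% lower. The groups did not overlap, with pLV-Exo-Wnt5a higher, for 3 of 10 members and for 7.9% of all genes. The count of 4 was 2 (Fos and Junb) with DESeq2 or edgeR fitted on all 9 libraries. Dropping Exo replicate 3 gave a median of 0.06 and dropping Exo replicate 1 gave 0.28. Dropping replicates 1, 2 and 3 of the pLV-Exo-Wnt5a group in turn gave 0.09, 0.31 and 0.25. Against Con libraries, 9 of 10 had a log2FC above 0 (50.8% of all genes) with a median of 0.41. There 3 were higher at an unadjusted p under 0.05 and 0 lower (4.2% and 4.15% of all genes), and 3 did not overlap (7.52%). Between Exo and Con libraries, 8 of 10 were above 0 (50.3% of all genes) with a median of 0.12. Of these, 2 were higher at an unadjusted p under 0.05 and 0 members lower (8.92% and 6.01% of all genes), and 2 did not overlap (10.8%). The count of 2 was 1 (Egr1) with edgeR on all 9 libraries or without Con replicate 2, and 3 without Con replicate 1. This median was 0.08 without Exo replicate 1, 0.19 without Exo replicate 3 and 0.26 without Con replicate 1. The members share upstream signals and are not independent replicates, and 10 genes are too few to read a share from.

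Within a group, the members other than Nr4a1 varied between libraries more than the median gene did, Ier2 only just. The pooled within-group SD of log2 CPM was 0.56 for Fosb, 0.43 for Egr2, 0.40 for Arc, 0.36 for Npas4 and 0.33 for Junb. These were the least counted members, with at most 382 counts in a library (Junb). The median SD over 15458 genes was 0.176, with no matching for counts. The SD was 0.24 for Fos and 0.22 for Egr1, and lowest for Ier2 at 0.184 and Nr4a1 at 0.14. Con replicate 1 held the highest Con value of 7 of 10 members and the lowest of Npas4. Without that library the SD was 0.25 for Arc and 0.17 for Npas4. In the pLV-Exo-Wnt5a group, replicate 2 held the lowest value of 6 of 10 members, Fos and Egr1 among them.

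After the group means were removed, some members deviated together over the 9 libraries, as the correlation map shows. Pearson's r was 0.94 for Fos and Egr1, 0.93 for Arc and Ier2, 0.83 for Junb and Arc and 0.80 for Fosb and Egr3. Among the 7 members other than Npas4, Egr3 and Fosb, a group singled out after the values were seen, all 21 pairs had r between 0.19 and 0.94. Npas4 ran against most others: 7 of its 9 correlations were below 0, down to -0.89 with Egr2. The points share library preparation and depth, and Con replicate 1 is extreme for several genes, so these values describe 9 libraries only.

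**Figure D4:**
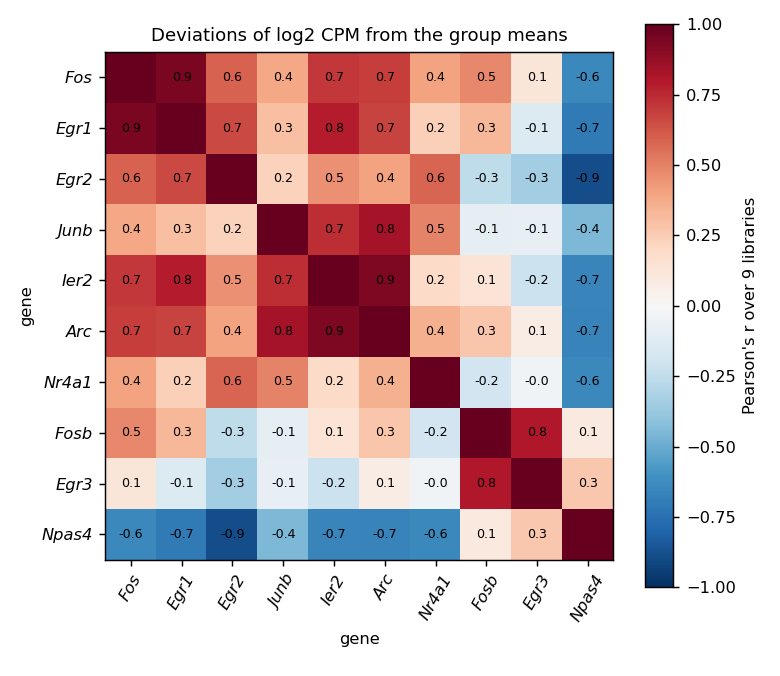
Colours and printed values give Pearson's r between 2 genes (both axes) over the deviations of 9 libraries from their group means. Fos and Egr1 reach 0.94, and the Npas4 row is negative for 7 of 9 genes.

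The other genes of the response, on lists written from general knowledge but with earlier results of these data known, gave the following. Of the other AP-1 subunits, 6 of 7 were tested and all 6 had a log2FC above 0 for pLV-Exo-Wnt5a against Exo, with a median of 0.25, and 4 were higher at an unadjusted p under 0.05, none with Q under 0.05. Over all genes tested, 51.4% were above 0 and 5.07% higher at that p. Maff, a small Maf factor, was at 1.26 ± 0.19 CPM in Exo libraries and 2.06 ± 0.34 CPM in pLV-Exo-Wnt5a libraries (SD, n = 3 each). Jun, the usual partner of Fos, was at 112 ± 4.31 and 124 ± 4.75 CPM, and Jund at 154 ± 11.6 and 171 ± 7.07 CPM. Fosl2, named after its values were seen, had a log2FC of 0.23. The Con means of Jun (124 CPM) and Jund (187 CPM) were as high as or higher than those of the pLV-Exo-Wnt5a group, unlike Fos and Junb. The stress-induced factor Atf3 was at 1.02 ± 0.18, 1.18 ± 0.28 and 1.82 ± 0.53 CPM in the 3 groups, with a log2FC of 0.84 against Con (unadjusted p = 0.0256, Q = 0.559 in edgeR).

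Among 13 other rapid response transcription regulators, Nr4a2, a relative of Nr4a1, followed the order of Egr1. It was at 9.58 ± 1.17 CPM in Con libraries, 13.1 ± 0.55 CPM in Exo libraries and 14.8 ± 1.75 CPM in pLV-Exo-Wnt5a libraries, with no overlap between Con and either exosome group (log2FC 0.46 and 0.63, Q = 0.265 and 0.341 in edgeR). Ier3 was highest in pLV-Exo-Wnt5a libraries, at 4.74 ± 0.63, 4.39 ± 0.58 and 6.75 ± 0.98 CPM (Q = 0.161 in edgeR for pLV-Exo-Wnt5a against Exo). Klf6 averaged 22.0, 32.5 and 30.6 CPM, and Btg2, an antiproliferative gene, 145, 118 and 122 CPM. Myc differed little, between 74.1 and 79.2 CPM in the group means. Counts at an unadjusted p under 0.05 were 3 higher and 1 lower for Exo against Con, 1 and 0 for pLV-Exo-Wnt5a against Exo, and 3 and 1 for pLV-Exo-Wnt5a against Con. The shares of all genes that were higher were 8.92%, 5.07% and 4.2% in the same order, and those lower were 6.01%, 6.91% and 4.15%.

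Feedback inhibitors, which shut the MAPK cascade or the factors down, stood higher in Exo libraries than in Con libraries for 12 of 17 genes (50.3% of all genes), with a median log2FC of 0.22. Of the 17, 7 did not overlap (10.8% of all genes) and 5 were higher at an unadjusted p under 0.05 (8.92% of all genes), none with Q under 0.05. Spry2 was at 52.9 ± 2.14 against 63.6 ± 6.09 CPM, Spred2 at 45.7 ± 1.25 against 53.2 ± 2.96 CPM, and Zfp36l1, which promotes mRNA decay, at 117 ± 3.36 against 144 ± 26.2 CPM. Spry4 was at 9.19 ± 0.12, 11.1 ± 0.09 and 12.9 ± 1.66 CPM in Con, Exo and pLV-Exo-Wnt5a libraries in turn. The dual-specificity phosphatase gene Dusp6 averaged 15.6, 19.6 and 21.5 CPM. Nab1, which represses Egr factors, was highest in Exo libraries, at 9.10 ± 1.50 CPM against 5.73 ± 2.44 CPM in the Con and 6.42 ± 0.83 CPM in pLV-Exo-Wnt5a libraries. For pLV-Exo-Wnt5a against Exo, 0 of the 17 were higher and 2 lower at an unadjusted p under 0.05 (5.07% and 6.91% of all genes). For pLV-Exo-Wnt5a against Con, 14 of 17 were above 0, 5 did not overlap and 5 were higher at an unadjusted p under 0.05, where the shares of all genes were 50.8%, 7.52% and 4.2%.

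Of 15 synaptic and secreted activity-induced genes, Nptx1, a neuronal pentraxin, was at 47.9 ± 0.46 CPM in Exo libraries and 32.2 ± 5.68 CPM in pLV-Exo-Wnt5a libraries. Its log2FC was -0.56 (standard error 0.11, Q = 0.0563 in edgeR), the opposite sign to Fos. Nptx2 averaged 18.3, 13.8 and 11.9 CPM, while the neuropeptide precursor gene Scg2 averaged 17.6, 27.8 and 26.8 CPM and Rheb 72.6, 84.9 and 84.8 CPM in Con, Exo and pLV-Exo-Wnt5a libraries in turn. Plk2 differed little, between 112 and 121 CPM. For pLV-Exo-Wnt5a against Exo, 0 of the 15 were higher and 1 lower at an unadjusted p under 0.05. Of 26 upstream factors and kinases, 2 were higher and 3 lower, where 5.07% of all genes were higher and 6.91% lower. For Exo against Con the counts were 3 and 1 in the synaptic list and 5 and 1 in the upstream list (8.92% and 6.01% of all genes). For pLV-Exo-Wnt5a against Con they were 2 and 1, and 0 and 1 (4.2% and 4.15% of all genes). Mef2c averaged 50.9, 76.3 and 58.0 CPM and Mef2a 8.51, 13.1 and 7.97 CPM, with a log2FC for pLV-Exo-Wnt5a against Exo of -0.39 and -0.71 (Q = 0.0691 and 0.0952 in edgeR). Elk3, a partner of serum response factor, had a log2FC of 0.36, and Camk4, a calcium-dependent kinase, averaged 4.54, 7.67 and 5.96 CPM. Crtc1, a coactivator of CREB, averaged 237, 217 and 234 CPM.

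**Figure D5:**
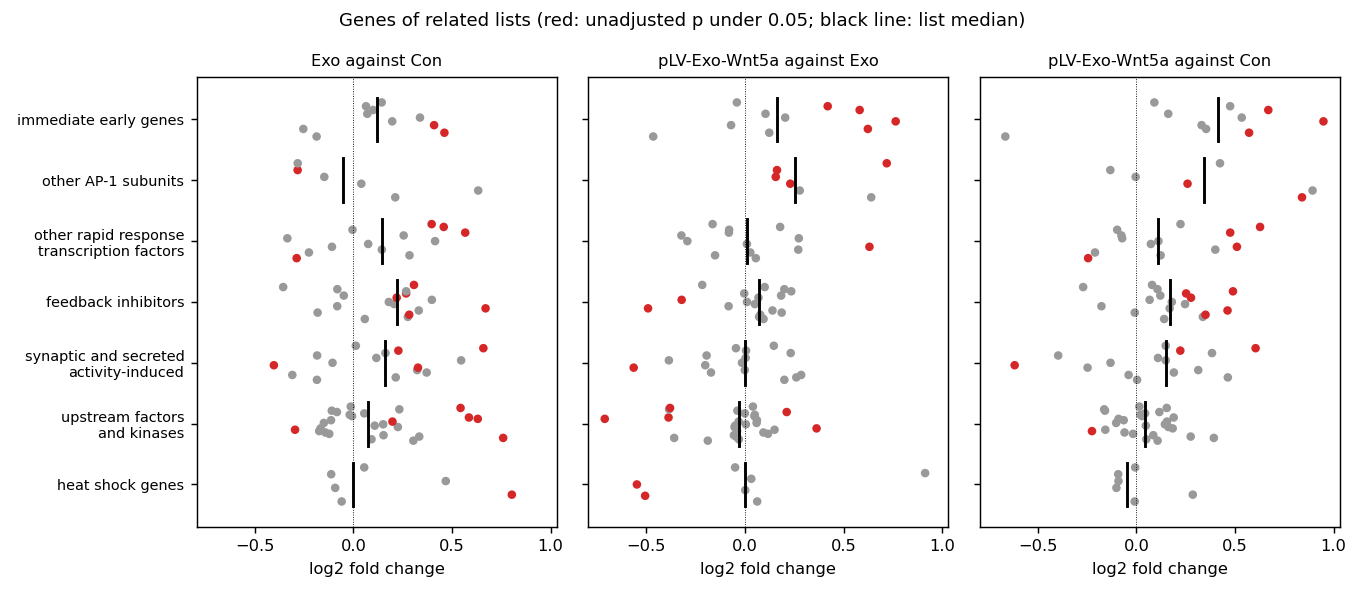
Each point is 1 gene's fitted log2 fold change (horizontal axis) in 3 comparisons, with lists in rows, list medians as black lines and red for an unadjusted p under 0.05. The 6 other AP-1 genes all lie above 0 for pLV-Exo-Wnt5a against Exo, whereas the median of the 15 synaptic and secreted genes is -0.00069.

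Several other measures moved with the groups, and their part in the values of Fos, Junb and Egr1 was not tested. Heat shock genes, both constitutive and inducible, summed to 2357 to 2514 CPM in Con libraries, 2142 to 2347 CPM in Exo libraries and 2245 to 2317 CPM in pLV-Exo-Wnt5a libraries. Hspa8 averaged 2214, 2045 and 2078 CPM, and Hsph1 114, 118 and 113 CPM. The inducible Hspa1a averaged at most 4.28 CPM in a group. Hsp90aa1 averaged 20.4, 35.6 and 24.9 CPM, and Hspa1b 2.23, 3.09 and 2.10 CPM. Astrocyte markers summed to 4691 to 5860 CPM in Con, 4528 to 4615 CPM in Exo and 6311 to 6592 CPM in pLV-Exo-Wnt5a libraries. Gfap had a log2FC of 0.66 against Con (Q = 0.129 in edgeR, no overlap) and 0.86 against Exo (Q = 3.36e-05), where the other 5 astrocyte markers (Slc1a3, S100b, Aqp4, Aldoc and Aldh1l1) had log2FC from -0.21 to 0.22. Of the 6 neural stem cell markers, for pLV-Exo-Wnt5a against Exo, Vim had a log2FC of 0.62 (Q = 0.0389 in edgeR), Nes 0.54, Prom1 0.17, Pax6 0.03, Hes5 -0.09 and Sox2 -0.10. Against Con libraries, Vim was at 0.24 and Hes5 at -0.41.

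Microglia and macrophage markers were low. They summed to 7.83 to 9.62 CPM in the Con, 2.98 to 3.99 CPM in the Exo and 7.27 to 9.90 CPM in pLV-Exo-Wnt5a libraries. C1qa averaged 3.75, 1.39 and 3.39 CPM, Csf1r 2.04, 0.67 and 2.48 CPM, Cx3cr1 1.02, 0.24 and 0.38 CPM, and Itgam 0.95, 0.70 and 1.41 CPM. Aif1 differed little, at 0.55, 0.54 and 0.59 CPM. P2ry12 and Tmem119 had at most 14 counts in a library and were at 0 in some. Neuron markers had a log2FC above 0 for 7 of 8 genes for Exo against Con, with a median of 0.45, and for 2 of 8 for pLV-Exo-Wnt5a against Exo. Against Con libraries, 7 of 8 were above 0 in pLV-Exo-Wnt5a libraries, with a median of 0.20. The shares of all genes above 0 were 50.3%, 51.4% and 50.8%. Tubb3 averaged 1801, 1770 and 1808 CPM and Rbfox3, which encodes NeuN, 87.2, 87.6 and 90.8 CPM. Snap25 averaged 32.9, 51.9 and 48.6 CPM, Gad1 113, 142 and 139 CPM, Gad2 5.94, 9.97 and 7.76 CPM, Map2 143, 195 and 139 CPM and Syt1 135, 183 and 161 CPM. Fibroblast and mural markers summed to 21.2 to 28.7 CPM in Con libraries and 19.5 to 20.1 CPM in both exosome groups together. Pdgfrb averaged 17.2, 10.3 and 10.8 CPM, Col1a1 1.94, 2.11 and 2.68 CPM, Col3a1 2.78, 3.81 and 2.58 CPM and Dcn 2.72, 3.36 and 3.34 CPM. Rgs5 and Lum averaged at most 0.18 CPM in a group. Endothelial markers summed to 4.20 to 7.96 CPM in all libraries, with Kdr at 5.51, 5.91 and 5.15 CPM and Pecam1 at 0.30, 0.30 and 0.52 CPM.

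A mean standardized profile of the 10 members was taken over the 9 libraries. Arc and Npas4 hardly followed it (Pearson's r 0.06 and 0.10, although each member is part of the profile). Among 13008 genes, the non-members most like it were E2f7 (Pearson's r 0.93), Gpd1l (0.91), Col1a1 (0.91), Mfsd9 (0.91), Pcdhb12 (0.90), Odad4 (0.89), Dut (0.89) and 1110032F04Rik (0.88). E2f7 averaged 2.75, 3.03 and 4.07 CPM. With 9 libraries and 13008 genes ranked, values of this size are a description.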

How the data were processed

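The deposited table holds whole-number counts per gene for 9 libraries, which the authors did not normalize. The methods name removal of low-quality reads and HISAT2, while the submitters' processing notes name Bowtie2, RSEM 1.3.1 and DESeq2 1.4.5 without a role. The genome build and annotation are not given in the sources used here, and genes carry mouse symbols although the cells are labelled rat. If the counts are rounded RSEM estimates, reads shared by related genes were split by a model. Columns were matched by library name, and 0 columns of counts were left without a sample.

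Each comparison used its own 6 libraries. Low genes were removed with filterByExpr, TMM set the library sizes, and edgeR 4.0.16 (R 4.3.3) gave a quasi-likelihood p for each gene, adjusted by Benjamini-Hochberg over all genes tested. The standard error was taken from the test statistic, and the 95% intervals from its degrees of freedom. The study's rule for changed genes (Q under 0.05, with a limit on the fold at 2 and 0.5) was also counted, as was its other rule (unadjusted p under 0.05 and absolute log2FC above 0.58). Log2 CPM used a prior count of 2. Total counts of 32765138 to 40427647 per library set the precision. DESeq2 1.42.0, RLE, other filters, all 9 libraries, the replicate number as a block and leaving out each library were alternatives. Replicates differed by more than sampling noise (chi-square per degree of freedom 7.49 to 50.1), so none was counted as a duplicate. The steps were tested on simulated data.

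The members and lists were chosen with earlier results of these data known. The rule for naming genes took all 10 members, up to 4 genes of each other list with the smallest unadjusted p under 0.05 in a comparison, the 2 with the highest CPM, and the 8 genes most like the members. A gene that this rule named is not reported here. Promoters were taken from RefSeq (GRCr8).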

Additional observations from a re-analysis of the deposited data

How the results depend on the processing

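With Q under 0.05 in edgeR, 0 members were called in each comparison. For Exo against Con, DESeq2 on 6 libraries and the fit without a filter on low counts each called 1 (Egr1). For pLV-Exo-Wnt5a against Exo, 2 were called by DESeq2 on 6 libraries and without a filter (Fos and Junb), and 1 (Fos) by DESeq2 on all 9 libraries. For pLV-Exo-Wnt5a against Con, DESeq2 on 6 libraries called 1 (Fos), and DESeq2 on all 9 libraries and the fit without a filter called 2 (Fos and Egr1). These settings also called more of all genes. DESeq2 on 6 libraries, DESeq2 on 9 and the fit without a filter called 1.4%, 2.74% and 1.93% of genes with Exo over Con (0.00664% in edgeR), 2.72%, 1.16% and 1.71% with pLV-Exo-Wnt5a over Exo (0.436%), and 0.477%, 1.09% and 0.372% with pLV-Exo-Wnt5a over Con (0.0862%). The cause was not tested. RLE, edgeR on all 9 libraries and a minimum of 10 counts in every library called 0.

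The replicate number as a block called 1 member (Fos) for pLV-Exo-Wnt5a against Exo (Q = 0.0210 in edgeR) and against Con (Q = 0.00134), and 0 for Exo against Con. It moved the count over all genes from 66 to 116, from 13 to 38 and from 1 to 0. Same-numbered libraries did not deviate together (r across genes from -0.20 to 0.06 over 9 pairs, and 3 of 9 libraries matched their own number best), so they share only a number.

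With 1 library left out, between 0 and 0 members were called for Exo against Con and between 0 and 1 in each of the other 2 comparisons, which was Fos. The calls over all genes ran from 0 to 371 (2.4%, without Con replicate 3), from 19 to 96 and from 1 to 18 in the same fits. The median log2FC was 0.08 to 0.26 with Exo over Con, 0.06 to 0.31 with pLV-Exo-Wnt5a over Exo and 0.28 to 0.48 with pLV-Exo-Wnt5a over Con, and kept its sign under the other alternatives. Signs of single members that had not passed turned with single libraries. For Exo against Con the log2FC ran from -0.41 to 0.22 for Arc, from -0.40 to 0.089 for Egr2, from -0.21 to 0.27 for Npas4, from -0.13 to 0.35 for Junb and from -0.041 to 0.20 for Ier2. For pLV-Exo-Wnt5a against Exo it ran from -0.46 to 0.49 for Fosb, from -0.34 to 0.11 for Egr3, from -0.017 to 0.26 for Egr1 and from -0.11 to 0.038 for Nr4a1. For pLV-Exo-Wnt5a against Con it ran from -0.14 to 0.82 for Fosb. Fosb, with 14 to 48 counts in a library, had the fewest reads behind it. The median within-group SD of the members was 0.30 on the log2 scale, 0.29 without TMM and 0.24 without Con replicate 1.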
